A study of Rattus norvegicus with 6 samples.

Results

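Cells exposed to whole serum were compared with cells exposed to a purified lipid. The comparison uses 4 of the 6 arrays in the series, chosen by their titles: LZ serum, OZ serum, cholesterol and fatty acid. For each gene, log2 of each lipid array was subtracted from log2 of each serum array, which gives 4 differences, and a positive difference means a higher signal in the serum array. The high glucose control and low glucose control arrays served as points of reference.

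All 6 groups hold cells of 1 kind, stem cells obtained by plating from skeletal muscle of male rats and kept in culture. Cholesterol was given at 100 mg/dl on cyclodextrin, its carrier, and sodium palmitate, a saturated fatty acid salt, is the other lipid in the labels. The labels do not say what LZ and OZ stand for, how much serum was given or for how long, which control belongs to which treatment, or whether any array other than cholesterol received cyclodextrin. With 1 array in each group no value carries an error and nothing could be tested, so every difference describes these arrays and not the conditions. Fewer cells of a type and less RNA per cell cannot be told apart in such bulk samples.

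The arrays were Affymetrix Rat Gene 2.0 ST, where a set of short probes is read together as 1 intensity. Median intensity over 36685 probe sets ran from 104.6 to 109.2 across the 6 arrays. Of 18166 genes with a probe set of their own, 11540 reached, in their mean signal, the median of all values, log2 6.74, and were compared. Of 14 annotated mesenchymal progenitor markers, 13 passed this filter, with Vim at log2 13.72 to 13.79 and Thy1 at 13.17 to 13.51. The myogenic regulators Myf5 and Myod1 did not exceed log2 6.48 in any array, and Pax7, the satellite cell factor, lay at 6.90 to 7.26, near the median of all values. Of 10 satellite cell and myoblast markers 4 passed, among them Ncam1, an adhesion molecule, at log2 11.37 to 12.43, lowest with fatty acid. Of 12 leukocyte markers 4 passed the filter, among them Cd14 at log2 8.41 to 10.13, highest with cholesterol and lowest with fatty acid. Ptprc, Adgre1, Csf1r and Itgam, which define macrophages, did not exceed log2 6.40 in any array.

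Cells handle free cholesterol and fatty acid by different routes. Excess sterol holds back the SREBP2 factor that drives the enzymes of cholesterol synthesis, and sterol derivatives activate the LXR receptors that drive export through ABCA1 and ABCG1. Saturated fatty acid enters membranes and triglyceride, and at high supply it is known to activate the unfolded protein response of the endoplasmic reticulum (ER). Serum carries both lipids too, but as lipoproteins and bound to albumin, together with hormones and growth factors.

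The serum arrays lay close to the controls and far from the lipid arrays. As the measure of distance, the root mean square of the log2 difference over all 11540 genes was 0.156 between LZ and OZ serum and 0.139 between LZ serum and the high glucose control. It was 0.338 from LZ serum to cholesterol, 0.365 from OZ serum to cholesterol, 0.458 from LZ serum to fatty acid and 0.444 from OZ serum to fatty acid. The fatty acid array was thus the farthest from both sera, and the difference between the sera was smaller than that between the controls, 0.244.

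**Figure D1:**
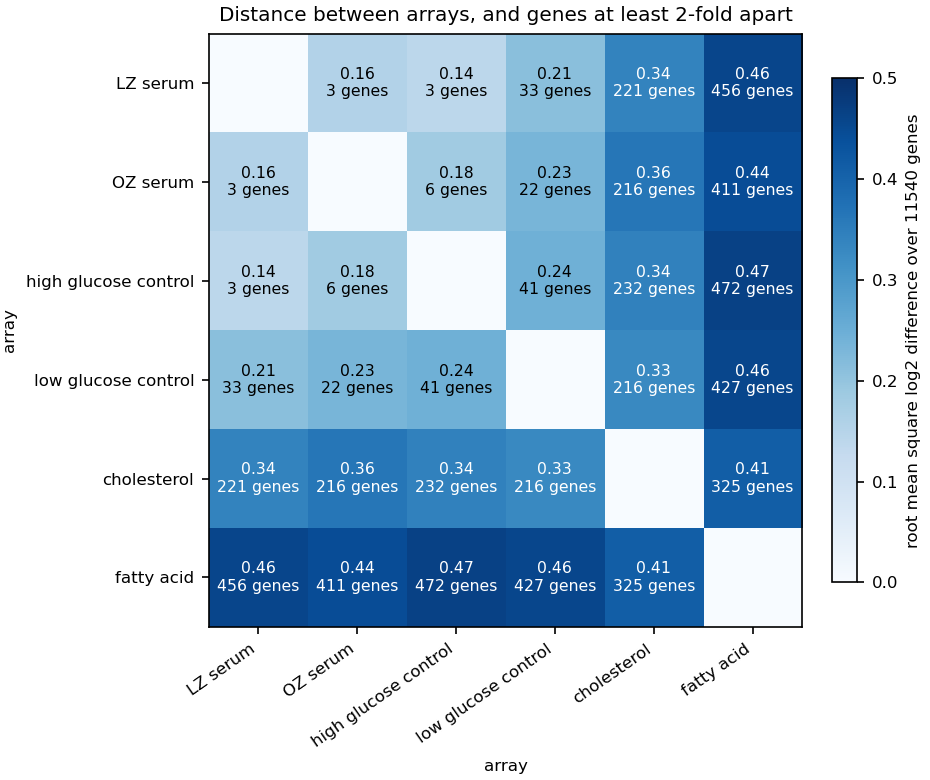
Distance between every pair of the 6 arrays, given in each cell as the root mean square log2 difference over 11540 genes (colour) with the number of genes at least 2-fold apart. The 2 sera and the high glucose control form the closest set, at 0.14 to 0.18, and the fatty acid array is the farthest from each other array.

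Counted gene by gene, LZ serum was at least 2-fold higher than cholesterol in 141 genes and at least 2-fold lower in 80, or 1.22% and 0.693% of the genes compared. For OZ serum against cholesterol, 123 genes (1.07%) were higher and 93 (0.806%) lower. LZ serum was at least 2-fold higher than fatty acid in 332 genes (2.88%) and lower in 124 (1.07%). OZ serum was higher than fatty acid in 268 (2.32%) and lower in 143 (1.24%). In all 4 differences more genes were at least 2-fold higher in serum than in lipid. For OZ serum against cholesterol this order turned at 1.5-fold, with 377 genes higher in serum and 504 lower.

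To ask what a lipid array showed that neither serum array did, a gene was counted when it differed at least 2-fold from both sera in 1 direction, and its value is the smaller of those 2 differences. Compared with both sera, 70 genes were higher in the cholesterol array, or 0.607% of all genes, and 109 were lower, or 0.945%. In the fatty acid array 110 were higher, or 0.953%, and 239 lower, or 2.07%. Just inside the threshold lay Fdft1, at 2.0017-fold lower with cholesterol, and just outside it Nkain4, at 1.9953-fold. Of the 70 and 109 cholesterol genes, 38 and 75 were also at least 2-fold from both controls (0.329% and 0.65% of all genes). For fatty acid this held for 71 of 110 and 190 of 239 (0.615% and 1.65%). The remainder differed from serum but less clearly from a control.

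The reverse question, what serum did that neither lipid nor control did, gave 0 genes at 2-fold in either direction (0.0%). The gene nearest to this was Gsta1, a glutathione transferase, at log2 7.35 in LZ serum and 7.17 in OZ serum. It lay at 8.17 and 8.54 in the high and low glucose controls, 9.51 with cholesterol and 9.13 with fatty acid. Both sera were therefore below all other arrays, with a smallest difference of -0.82. Itga4, an integrin subunit, came nearest in the other direction, with a smallest difference of 0.65.

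The gene with the largest excess in the cholesterol array was a cholesterol exporter. Abcg1, a transporter that passes cholesterol to high density lipoprotein, had a log2 signal of 11.65 with cholesterol. It lay at 7.44 in LZ serum, 7.58 in OZ serum, 7.73 and 7.54 in the high and low glucose controls, and 9.29 with fatty acid. The cholesterol array was 16.8-fold higher than the nearer serum, the 2 sera and 2 controls did not overlap with either lipid, and fatty acid was 3.26-fold above serum. Abca1, which transfers cholesterol and phospholipid to apolipoprotein A-I, was at 12.27 with cholesterol against 9.51 in LZ serum, 9.21 in OZ serum, 9.41 and 9.33 in the controls and 10.28 with fatty acid. OZ serum was above LZ serum for Abcg1 and below it for Abca1. Of 10 measured LXR targets, 8 were higher with cholesterol than in both sera (46.6% of all genes were). At least 2-fold higher were 4 (0.607% of all genes), among them Abca1 and Abcg1. The others were Srebf1, the factor for fatty acid synthesis, at 3.49-fold, and Mylip, the ligase that marks the LDL receptor for breakdown, at 2.71-fold. The list's median serum minus cholesterol difference was -0.72 for LZ and -0.78 for OZ serum, against -0.02 and -0.04 over all genes.

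Sterol synthesis showed the opposite, and here serum was not the same as control. Idi1, the isomerase that makes the isoprene building block of sterols, was at log2 6.72 with cholesterol, just under the median of all values. It lay at 9.41 in LZ serum, 9.32 in OZ serum, 9.90 and 9.92 in the high and low glucose controls and 8.97 with fatty acid. Serum was thus below both controls but far above cholesterol, by 6.06-fold. Msmo1, the sterol methyl oxidase, was at 10.46 with cholesterol and at 12.22, 12.28, 12.40, 12.33 and 12.17 in LZ serum, OZ serum, the high and low glucose controls and fatty acid, so that only the cholesterol array stood apart. Cyp51, the lanosterol demethylase, was at 8.33 with cholesterol, 9.74 with fatty acid, 10.30 in LZ serum, 10.10 in OZ serum and 10.70 and 10.72 in the controls. Of 16 measured enzymes of cholesterol synthesis, 14 were lower with cholesterol than in both sera (36.2% of all genes were). At least 2-fold lower were 5 (0.945% of all genes), namely Idi1, Cyp51, Msmo1, Fdps at 1.11 and Fdft1 just at the threshold. None of the 16 was 2-fold from both sera with fatty acid (0.953% of all genes were higher and 2.07% lower).

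All 16 of these enzymes had a lower signal in both sera than in both controls, while 19.7% of all genes did. The median difference from the high and low glucose controls was -0.23 and -0.40 for LZ serum, -0.45 and -0.62 for OZ serum, and -1.10 and -1.22 for cholesterol. For fatty acid it was -0.37 and -0.54. By these medians serum stood below the controls in this pathway, as both lipids did, and at a smaller size than cholesterol. The fatty acid medians lay between those of the sera. OZ serum was lower than LZ serum in 15 of 16 enzymes. Sqle, the squalene epoxidase, was at 10.56 and 10.72 in the high and low glucose controls, 10.27 in LZ serum and 10.21 with fatty acid. It was at 9.88 in OZ serum and 8.98 with cholesterol. In serum, LXR targets leaned to the same side by smaller medians. Of 10, 4 were below both controls in both sera (19.7% of all genes) and 0 above (8.83%). Taken against high and then low glucose, their medians were -0.13 and -0.05 for LZ serum and -0.20 and -0.11 for OZ serum. With cholesterol the same medians lay on the other side, at 0.62 and 0.65.

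Promoters of the sterol enzymes are printed to show where the shared letters lie. A promoter here is the 250 bases before the gene start in RefSeq, assembly GRCr8, and 15 of the 20 listed enzymes matched an entry. The CCAAT box, the site of factor NF-Y (letters CCAAT, either strand), occurred in 12 of those 15 promoters, or 80.0%, and in 36.1% of 27457 genes. The sterol response element TCACNCCAC occurred in 0 of 15 and in 1.09% of all genes, which says only that these exact letters are not in these windows. Capitals mark the CCAAT boxes, on the opposite strand in Idi1 (chr17:66547525-66547774, minus strand) and on the same strand in Msmo1 (chr16:29746863-29747112, plus strand).
Idi1: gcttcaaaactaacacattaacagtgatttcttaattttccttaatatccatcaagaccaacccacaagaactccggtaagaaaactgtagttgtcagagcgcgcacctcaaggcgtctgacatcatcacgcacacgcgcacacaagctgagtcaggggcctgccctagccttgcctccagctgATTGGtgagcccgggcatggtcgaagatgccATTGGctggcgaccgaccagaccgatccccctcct
Msmo1: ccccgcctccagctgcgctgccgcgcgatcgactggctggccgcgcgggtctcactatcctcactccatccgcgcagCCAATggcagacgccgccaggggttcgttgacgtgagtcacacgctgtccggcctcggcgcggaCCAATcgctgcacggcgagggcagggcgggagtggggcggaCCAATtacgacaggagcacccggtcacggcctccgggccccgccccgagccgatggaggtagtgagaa

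A few genes of sterol sensing and of desaturation lay on the same side as the enzymes. Insig1, which holds SREBP in the ER, was at log2 8.18 with cholesterol, 9.53 in LZ serum, 9.27 in OZ serum, 9.99 and 9.78 in the controls and 9.91 with fatty acid. Stard4, a cytosolic sterol carrier, was 1.15 lower with cholesterol than in the nearer serum. Of 12 genes of sterol uptake, sensing and transport, 6 were lower and 4 higher with cholesterol than in both sera. Over all genes 36.2% were lower and 46.6% higher. The list's median serum minus cholesterol differences were 0.13 for LZ and 0.04 for OZ serum. Insig1 and Stard4 were the 2 at least 2-fold lower (0.945% of all genes). Soat1, which esterifies cholesterol for storage, was the 1 at least 2-fold higher with fatty acid (-1.13, 0.953% of all genes). Of 13 genes of fatty acid synthesis, desaturation and elongation, 9 were lower with cholesterol (36.2% of all genes). Fads2, a desaturase, was the 1 at least 2-fold lower (1.10). Scd, another desaturase, was at 7.70 with cholesterol, 9.02 in LZ serum, 8.60 in OZ serum, 9.22 and 9.78 in the controls and 8.71 with fatty acid. OZ serum was the serum array nearer to cholesterol for Insig1, Stard4, Fads2 and Scd.

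**Figure D2:**
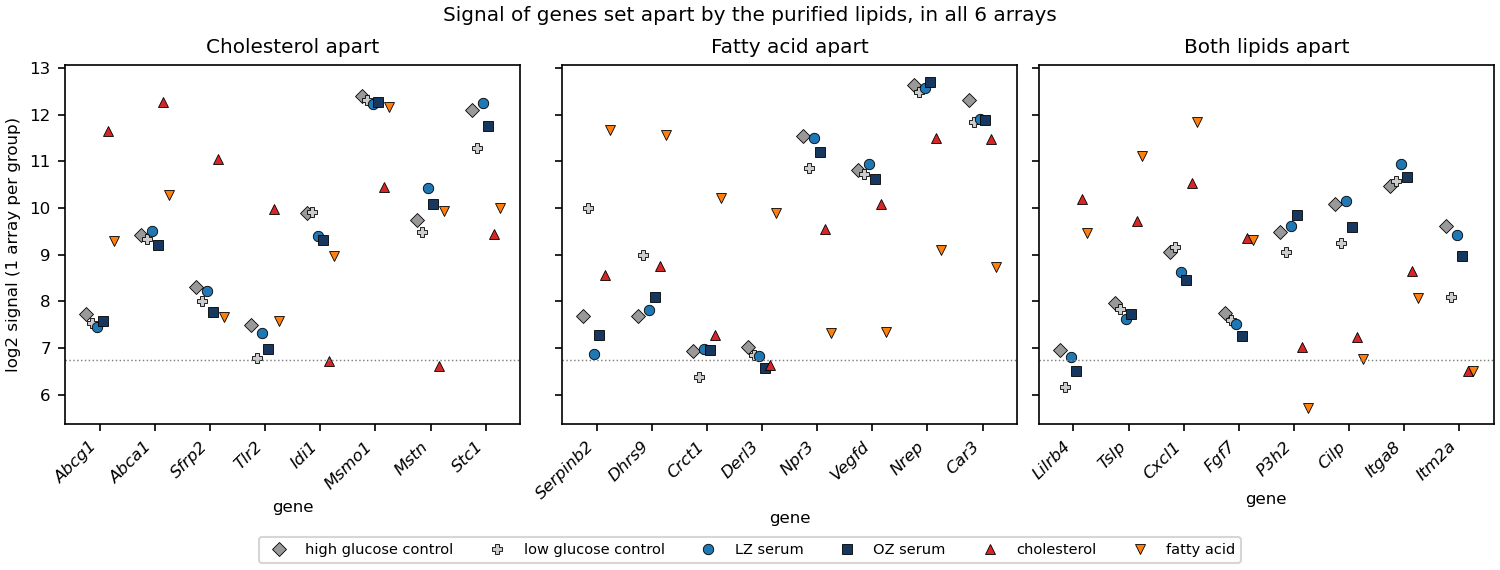
Log2 signal of 24 genes in all 6 arrays, 1 point per array and 1 array per group; the dotted line is the median of all values, 6.74. In the first panel the cholesterol array leaves the sera and controls most. For Abcg1, Abca1 and Stc1 fatty acid leaves them too, on the same side and by less. In the second panel mainly the fatty acid array leaves the other points, and in the third both lipid arrays do. LZ and OZ serum lie together, and for most genes near the controls. In Serpinb2 the low glucose control (9.99) lies far above both sera (6.87 and 7.28), and in Dhrs9 and Itm2a the controls also lie apart.

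Genes outside the sterol lists were also among the highest in the cholesterol array relative to serum. Lilrb4, an inhibitory receptor of the immunoglobulin family, was at log2 10.18 with cholesterol and 9.46 with fatty acid, against 6.80 in LZ serum, 6.51 in OZ serum and 6.95 and 6.16 in the controls. The 4 arrays without purified lipid lay near the median of all values and the 2 lipid arrays far above. Sfrp2, a secreted modulator of Wnt signals, was at 11.05 with cholesterol, 8.23 in LZ serum, 7.77 in OZ serum, and between 7.66 and 8.31 in the other 3 arrays. Tlr2, a receptor for bacterial lipopeptides, was at 9.97 with cholesterol and between 6.79 and 7.57 in the other 5 arrays. For both genes the cholesterol array alone was high. Cx3cl1, a membrane-bound chemokine, was 4.36-fold and Mlana, a melanosome protein, 5.09-fold above the nearer serum, and neither was 2-fold from both sera with fatty acid. Beside these, the leukocyte markers that passed the filter included Cd68, at 8.37 with cholesterol and 6.77 to 7.21 elsewhere. Cd14, which passed too, was at 10.13 with cholesterol, 8.41 with fatty acid and 9.01 to 9.62 in the sera and controls. The summed intensity of the 12 leukocyte markers ran from 1117.3 to 2084.0, highest with cholesterol, and its part in these differences was not tested.

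Among genes low with cholesterol, Mstn stood first. It encodes myostatin, a secreted factor that restrains muscle growth, and lay at log2 6.61 with cholesterol. The signal was 10.43 in LZ serum, 10.08 in OZ serum, 9.74 and 9.49 in the controls and 9.93 with fatty acid. Both sera were above both controls and 11.0-fold above cholesterol, whose own signal is so dim that the fold is uncertain in size. Igfbp3, a carrier of insulin-like growth factors, was at 7.06 with cholesterol, 9.14 in LZ serum, 8.76 in OZ serum, 9.91 and 9.70 in the controls and 8.28 with fatty acid. For Igfbp3 both sera and both lipids lay below the controls, whereas for Mstn both sera and fatty acid lay above them and cholesterol below. Stc1, the hormone stanniocalcin, was 4.95-fold and Rorb, an orphan nuclear receptor, 4.20-fold lower with cholesterol than in the nearer serum.

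Several genes of the cornified envelope list were high in the fatty acid array. Serpinb2, an inhibitor of plasminogen activators, reached log2 11.68 with fatty acid, 8.56 with cholesterol, 6.87 in LZ serum and 7.28 in OZ serum. Its signal in the high and low glucose controls, 7.68 and 9.99, differed from each other. The fatty acid array was 21.1-fold above the nearer serum, and over all 4 arrays without purified lipid the smallest difference was -1.69. Dhrs9, a retinol dehydrogenase, was at 11.57 with fatty acid, 8.76 with cholesterol, 7.80 and 8.09 in LZ and OZ serum and 7.68 and 8.99 in the controls. Crct1, Lce1e and Sprr1a, genes of the cornified envelope of skin, were 9.49-fold, 6.81-fold and 6.36-fold above the nearer serum with fatty acid. With cholesterol they were within 1.25-fold of it. Of 13 annotated cornified envelope genes 9 passed the filter. At least 2-fold higher with fatty acid than in both sera were 5 of the 9, against 0.953% of all genes. Lce1e, at log2 6.21 to 6.83 in the sera, the controls and with cholesterol, passed only through its fatty acid signal, 9.59. Of 8 annotated keratinocyte and epithelial markers 3 passed the filter, Krt8, Krt10 and Tp63, at most at log2 7.21 in any array, while Krt14 and Dsg3, at most at 7.03 and 5.65, did not. The summed intensity of the 8 ran from 655.9 to 764.9, highest with fatty acid, and its part in these differences was not tested.

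Protein folding in the ER separated the lipids from each other as well as from serum. Derl3, which passes misfolded proteins to degradation, was at log2 9.88 with fatty acid and between 6.58 and 7.02 in the other 5 arrays. Creld2, a disulfide isomerase of the ER, was at 10.64 with fatty acid, 9.14 in LZ serum, 9.16 in OZ serum, 9.03 and 9.23 in the controls and 9.03 with cholesterol. Hspa5, the chaperone BiP, was at 13.37 with fatty acid, 12.82 in LZ serum, 12.85 in OZ serum, 12.79 and 12.84 in the controls and 12.60 with cholesterol. Both sera lay within or next to the controls for Creld2 and Hspa5, and for Derl3 both were slightly below them. Of 23 measured chaperone and degradation genes, 22 were higher with fatty acid than in both sera (46.2% of all genes were). At least 2-fold higher were 3 (0.953% of all genes): Derl3, Creld2 and Dnajb9, a co-chaperone, at 2.38-fold. With cholesterol, 18 of 23 were lower than in both sera (36.2% of all genes were) and 0 at 2-fold. The list's median serum minus lipid difference was 0.18 for LZ and 0.19 for OZ serum against cholesterol and -0.30 and -0.35 against fatty acid.

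The promoters of Derl3 and Creld2 are shown because both hold the ER stress response element, the pair of half-sites bound by NF-Y and ATF6. It was searched on both strands as CCAAT, 9 bases of any kind, then CCACG, and so it contains a CCAAT box. It occurred in 8 of the 20 listed ER genes with a RefSeq promoter, or 40.0%, and in 21 of 27457 genes, or 0.0765%. Capitals mark the element, which lies on the opposite strand in Derl3 (chr20:12766466-12766715, minus strand) and in Creld2 (chr7:121789134-121789383, plus strand). 
Derl3: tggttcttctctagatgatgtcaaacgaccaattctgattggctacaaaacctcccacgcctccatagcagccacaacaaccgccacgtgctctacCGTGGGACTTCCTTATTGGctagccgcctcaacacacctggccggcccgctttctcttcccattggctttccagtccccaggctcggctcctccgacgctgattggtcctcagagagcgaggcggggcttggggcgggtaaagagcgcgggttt
Creld2: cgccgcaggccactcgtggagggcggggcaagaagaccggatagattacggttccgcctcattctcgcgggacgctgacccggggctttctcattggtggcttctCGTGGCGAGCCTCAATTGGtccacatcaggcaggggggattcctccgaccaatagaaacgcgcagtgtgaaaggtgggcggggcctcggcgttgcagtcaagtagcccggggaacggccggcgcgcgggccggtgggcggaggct

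All 8 measured ER genes with the element and all 11 with a promoter lacking it were higher with fatty acid than in both sera. Their median log2 excess over the nearer serum was 0.533 with the element and 0.361 without, and 2 of 8 and 1 of 11 were at least 2-fold. The ranges, 0.023 to 3.05 and 0.003 to 1.25, overlapped.

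Among targets of ATF4, the factor of amino acid supply and stress, most were lower with cholesterol than in serum, and with fatty acid they were mixed. Of 25 measured genes, 21 were lower with cholesterol than in both sera (36.2% of all genes were) and 3 higher. With fatty acid 16 were lower (39.2% of all genes) and 9 higher, the higher ones including the amino acid carriers Slc7a1, Slc7a5 and Slc3a2. At 2-fold, 3 were lower with each lipid (0.945% and 2.07% of all genes), and 2 were higher with fatty acid. Slc7a3, a carrier of cationic amino acids, was at log2 8.32 in LZ serum, 8.18 in OZ serum, 8.40 and 8.14 in the controls, 6.82 with cholesterol and 6.09 with fatty acid. Aldh1l2, a mitochondrial folate enzyme, was at 9.31 in both sera, 9.12 and 9.74 in the controls, 7.95 with cholesterol and 7.38 with fatty acid. For both genes serum lay within the range of the controls. The stress genes Ddit3, the factor CHOP, and Ppp1r15a, which restarts translation, lay at -1.02 and -1.22 (nearer serum minus fatty acid), and at -0.17 and -0.11 against cholesterol.

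Few genes of fatty acid oxidation and storage separated serum from lipid. Of 24 measured genes, 0 were at least 2-fold from both sera with cholesterol (0.607% of all genes were higher and 0.945% lower). With fatty acid only Ucp2, a mitochondrial uncoupling protein, was, on the lower side (2.07% of all genes). Its signal was 8.25 with fatty acid, 9.55 with cholesterol, 10.24 in LZ serum, 10.61 in OZ serum and 9.63 and 10.06 in the controls. Cpt1a, which admits long-chain fatty acids to mitochondria, was at 8.95 and 8.88 in the high and low glucose controls, 9.39 in LZ serum, 9.64 in OZ serum, 9.65 with cholesterol and 9.90 with fatty acid. All 4 arrays given serum or lipid were above both controls, and OZ serum was level with cholesterol. Pdk4, the kinase that closes glucose oxidation, was at 8.11 in OZ serum, 7.47 in LZ serum, 7.74 with fatty acid, 7.10 with cholesterol and 7.30 and 6.83 in the controls. Plin2, the coat protein of lipid droplets, was at 10.49 with fatty acid, 10.25 with cholesterol and 9.62 to 9.73 in the sera and controls. Of the 24 genes, 11 were above both controls in both sera, against 8.83% of all genes. No gene of the whole table was at least 1.5-fold from both controls in both sera and both lipids in 1 direction.

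Both lipids together differed at least 2-fold from both sera in 35 genes that were higher with lipid (0.303%) and 68 that were lower (0.589%). Of these, 14 and 42 were also 2-fold from both controls with both lipids. Tslp, an epithelial cytokine, was at log2 11.11 with fatty acid and 9.73 with cholesterol, against 7.62 in LZ serum, 7.72 in OZ serum and 7.97 and 7.82 in the controls. Cxcl1, a neutrophil chemokine, was at 11.85 and 10.55 with fatty acid and cholesterol, 8.62 in LZ serum, 8.45 in OZ serum and 9.06 and 9.17 in the controls. For Cxcl1 both sera lay below both controls, so part of its 3.81-fold margin between serum and cholesterol is a low serum signal. Fgf7, a growth factor for epithelium, was at 9.35 with cholesterol, 9.32 with fatty acid, 7.51 in LZ serum, 7.25 in OZ serum and 7.76 and 7.60 in the controls. Usp18, which removes the interferon-induced modifier ISG15, was 3.44-fold above serum with cholesterol and 4.03-fold with fatty acid.

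Among the 35 genes higher with both lipids were 3 of 21 measured inflammatory genes and 6 of 26 immediate early genes, against 0.303% of all genes. Of 21 measured inflammatory and NF-kB genes, 18 were higher than in both sera with cholesterol and 18 with fatty acid (46.6% and 46.2% of all genes), at 2-fold 6 and 8 (0.607% and 0.953%). Among the 8, Mmp13 passed the filter only through its fatty acid signal, log2 7.98. The list's median serum minus lipid differences were -0.48 and -0.89 for LZ and OZ serum against cholesterol and -0.63 and -0.78 against fatty acid. Il6 went the other way with fatty acid, at 6.95 against 8.15 in LZ serum and 8.33 in OZ serum. Of 26 immediate early genes and ERK feedback genes, 20 were higher with cholesterol and 23 with fatty acid, at 2-fold 6 and 9, beside the same shares of all genes. Fos, counted with both lipids, passed the filter only through its lipid signals, log2 7.25 with cholesterol and 6.96 with fatty acid. Dusp5 and Dusp6, phosphatases that switch off ERK, were 2.30-fold and 2.15-fold above serum with cholesterol and 4.62-fold and 4.40-fold with fatty acid. Fosl1, an AP-1 subunit, was at 11.11 with fatty acid, 10.40 with cholesterol, 8.77 in LZ serum, 9.03 in OZ serum and 8.78 and 9.61 in the controls. Hmox1, the heme oxygenase induced by NRF2, was 2.22-fold above serum with cholesterol and 3.27-fold with fatty acid. Of 18 NRF2 genes it was the 1 at 2-fold with cholesterol and 1 of 3 with fatty acid (0.607% and 0.953% of all genes).

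Among the 68 genes at least 2-fold lower with both lipids were 3 of 24 collagen and matrix genes and 2 of 13 contractile genes. Over all genes the share was 0.589%. P3h2 and Cilp, given next, are in neither list, and Itga8 is in the contractile list. P3h2, which hydroxylates collagen, was at log2 5.72 with fatty acid and 7.02 with cholesterol, against 9.62 in LZ serum, 9.84 in OZ serum and 9.49 and 9.06 in the controls. Its fatty acid signal is dim, so the 15.0-fold difference is uncertain in size. Cilp, a matrix protein of cartilage, was at 7.23 with cholesterol, 6.77 with fatty acid, 10.16 in LZ serum, 9.59 in OZ serum and 10.08 and 9.25 in the controls. Itga8, an integrin subunit of contractile cells, was at 8.66 with cholesterol, 8.07 with fatty acid, 10.94 in LZ serum, 10.66 in OZ serum and 10.46 and 10.59 in the controls. In P3h2, Cilp and Itga8 the sera lay with the controls or above them.

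Other genes were low mainly with fatty acid. Npr3, the clearance receptor of natriuretic peptides, was at log2 7.31 with fatty acid, 9.54 with cholesterol, 11.51 in LZ serum, 11.20 in OZ serum and 11.55 and 10.85 in the controls. Pln, phospholamban, the inhibitor of the sarcoplasmic calcium pump, was 12.5-fold lower with fatty acid and 3.44-fold lower with cholesterol than in the nearer serum. Vegfd, a lymphatic growth factor, was at 7.35 with fatty acid and between 10.09 and 10.94 in the other 5 arrays. Of 24 collagen and matrix genes, 21 were lower with cholesterol than in both sera, 4 at least 2-fold, and 23 with fatty acid, 9 at least 2-fold. Over all genes 36.2% and 39.2% were lower, and 0.945% and 2.07% at least 2-fold. Ogn, the proteoglycan osteoglycin, led both, at 12.74 in LZ serum, 12.79 in OZ serum, 12.98 and 12.61 in the controls, 11.04 with cholesterol and 9.52 with fatty acid. The list's medians were 0.33 and 0.22 for LZ and OZ serum against cholesterol and 0.83 and 0.76 against fatty acid. Of 13 contractile genes, 10 were lower with cholesterol and 11 with fatty acid, with 2 and 4 at 2-fold. Acta1, skeletal actin, was at 8.43 with fatty acid, 9.55 with cholesterol and 10.50 to 10.86 in the sera and controls.

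**Figure D3:**
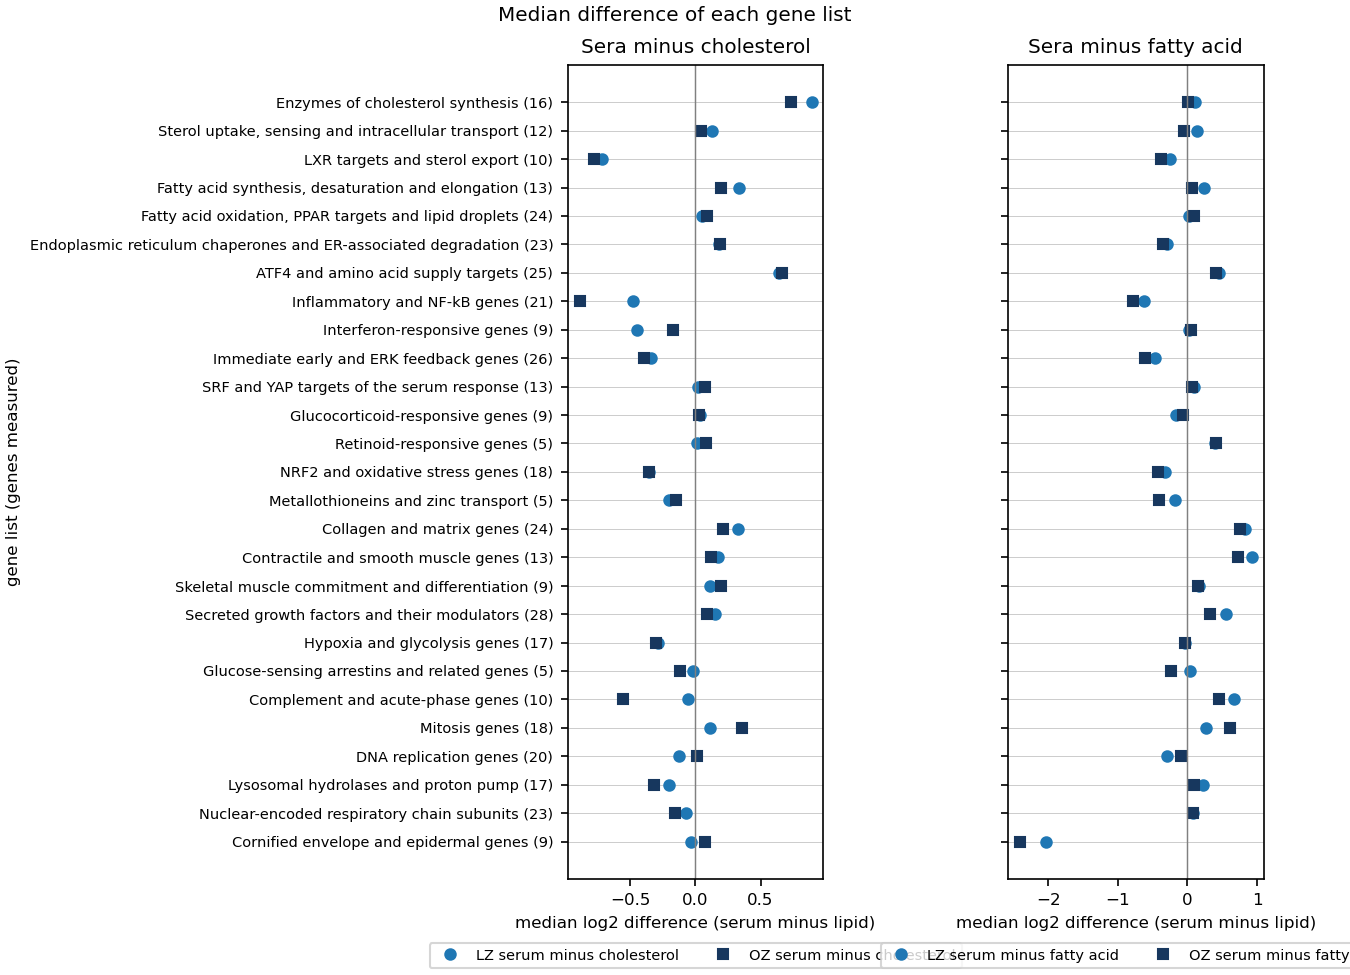
Median log2 difference, serum minus lipid, of 27 gene lists for LZ serum (circles) and OZ serum (squares), against cholesterol on the left and fatty acid on the right, with the number of measured genes after each name; the 2 panels have different scales. Against cholesterol, sterol synthesis (0.89 and 0.74) and ATF4 targets (0.64 and 0.67) lie highest. LXR targets (-0.72 and -0.78) and inflammatory genes (-0.48 and -0.89) lie lowest there. Against fatty acid, cornified envelope genes (-2.04 and -2.41) lie lowest, and ER genes lie on opposite sides in the panels.

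The last question was whether OZ serum lay nearer to either lipid than LZ serum did. Over all genes it was farther from cholesterol, by 0.0262 in root mean square distance, and nearer to fatty acid, with an OZ minus LZ distance of -0.0133. OZ serum was the nearer serum to cholesterol in 4611 of 11540 genes, or 40.0%, and the nearer to fatty acid in 5930, or 51.4%. Both shifts are small beside the distance between the sera themselves, 0.156, and beside the distances to the lipids. OZ and LZ serum differed at least 2-fold in 3 genes, or 0.026%, all lower in OZ serum, and 0 (0.0%) were higher.

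Restricted to genes that a lipid set apart from both controls, which uses no serum array, the answer depended on direction. Among 44 genes at least 2-fold higher with cholesterol (0.381%), OZ serum was nearer to cholesterol in 8, or 18.2%. Among 93 genes lower with cholesterol (0.806%), it was nearer in 72, or 77.4%. For fatty acid, 74 genes were higher (0.641% of all genes) and 232 lower (2.01%). OZ serum was nearer to fatty acid in 30 of the 74 (40.5%) and in 167 of the 232 (72.0%). In each of these 4 sets the median OZ minus LZ difference was below 0: -0.14 and -0.11 in the cholesterol sets and -0.02 and -0.10 in the fatty acid sets, against -0.03 over all genes. In both cholesterol sets and in the genes lower with fatty acid, this median lay further below 0 than over all genes. In the genes higher with fatty acid it did not. Over all genes OZ serum was the lower serum in 6703 of 11540. It was nearer to cholesterol in 40.0% and nearer to fatty acid in 51.4% of all genes.

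**Figure D4:**
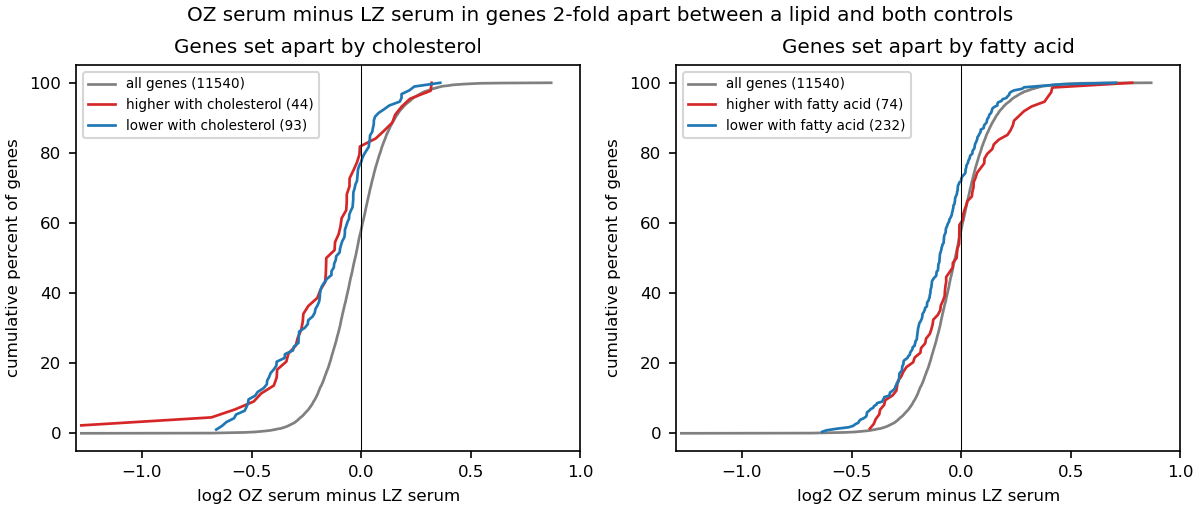
Cumulative percent of genes by OZ serum minus LZ serum (log2), for all 11540 genes and for those at least 2-fold higher or lower with cholesterol (left; 44 and 93 genes) or fatty acid (right; 74 and 232 genes) than in both controls. The curves of the cholesterol sets in both directions lie to the left of all genes, and on the right only the curve of the genes lower with fatty acid does so throughout most of its length.

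Across genes, OZ minus LZ serum had a Pearson correlation of -0.07 with cholesterol minus the mean of the controls and of 0.16 with fatty acid minus the mean of the controls, over 11540 genes. The 2 sides of each correlation share no array, but genes are not independent replicates and all values share 1 scaling. As a yardstick, high minus low glucose control, which holds no serum or lipid, correlated at -0.19 with cholesterol minus the mean of the sera and at -0.15 with fatty acid minus the mean of the sera. The cholesterol value was smaller in size than its yardstick, and the fatty acid value was close to its own in size, with the opposite sign.

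Named genes that differed between the sera were few. Mt2A, a metallothionein, was at log2 11.77 in LZ serum and 10.49 in OZ serum, with 12.61 with cholesterol, 11.96 with fatty acid and 10.68 and 11.34 in the controls. It was the 1 gene at least 2-fold apart both between the sera and between cholesterol and both controls, and OZ serum lay on the side away from cholesterol. At 1.5-fold, 30 genes separated the sera, and 3 of these lay toward and 5 away from cholesterol, 5 toward and 6 away from fatty acid. Dhrs3, a retinaldehyde reductase, was the named gene in which OZ serum lay toward both lipids: 9.78 in LZ serum, 9.14 in OZ serum, 9.24 and 9.04 in the controls, 7.73 with cholesterol and 7.83 with fatty acid. Cp, ceruloplasmin, lay toward fatty acid and away from cholesterol, at 9.36 in LZ serum, 8.69 in OZ serum, 9.61 with cholesterol, 7.29 with fatty acid and 8.99 and 8.04 in the controls.

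By list, the sera differed in a few groups. OZ serum was below LZ serum in 10 of 10 complement and acute phase genes (median -0.38), in 22 of 24 collagen and matrix genes (median -0.10) and in 15 of 16 sterol enzymes (median -0.15), against 6703 of 11540 genes. OZ serum was above LZ serum in 18 of 18 mitosis genes (median 0.27), against 4834 of 11540. Of 18 mitosis genes, 16 were lower with fatty acid than in both sera (39.2% of all genes) and 12 with cholesterol (36.2%). In those 16, OZ serum was thus the serum farther from fatty acid. Cdk1, the mitotic kinase, was at 10.09 in OZ serum, 9.82 in LZ serum, 9.65 and 10.01 in the high and low glucose controls, 9.29 with cholesterol and 9.34 with fatty acid, and the controls differed by more than the sera did.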

How the data were processed

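Per the labels, RNA of each of 6 groups was read on 1 Affymetrix Rat Gene 2.0 ST array. The deposited values are intensities on a linear scale. How the authors summarised, background-corrected and normalized them is not given in the sources used here. Groups come from sample titles. Log2 was taken without an offset. The platform annotation gives 1 gene for 18511 of 36685 probe sets, several genes for 575 and no gene for 17599. Only the first kind was used. Symbols were checked through a RefSeq table of GRCr8 (18394 matched, 0 changed). A gene with several probe sets (291) took the one with the highest mean. Genes whose mean was under the median of all values were left out. This mean includes the lipid arrays, so a gene could pass through a lipid signal alone, as Lce1e, Lilrb4, Mmp13 and Fos did, among others. Mmp13 and Fos were named for this reason, with their values known.

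Named genes were the 12 largest in each direction of the comparisons with both sera, those shared with OZ minus LZ serum, 4 per list and a panel of 28, which gave 165. Genes and the 34 lists were chosen with earlier results of these data known, and comparisons of sera with controls by list were added later. Genes named among the 5 or fewer of a count, Krt14, Dsg3, Slc7a1, Slc7a5, Slc3a2, Vim, Thy1, Myf5, Myod1, Nkain4, Fdft1, Itga4 and the leukocyte markers fall outside this rule and were picked with their values known. Some genes are not reported here. The software was R 4.3.3, limma 3.58.1, Python 3.11.15, pandas 2.3.3, numpy 2.4.6, matplotlib 3.10.9 and scipy 1.17.1.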

Additional observations from a re-analysis of the deposited data

Results flagged for a closer look

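Tgfbi, a secreted matrix protein induced by TGF-beta, lay on opposite sides of serum in the lipid arrays. Its log2 signal was 10.56 in LZ serum and 10.77 in OZ serum, 11.54 with cholesterol, 9.29 with fatty acid and 10.34 and 11.48 in the high and low glucose controls. Both sera minus cholesterol gave -0.77 and both sera minus fatty acid gave 1.26, and this difference between the lipids was not tested. The controls differed from each other by more than serum did from cholesterol. It is 1 of 9 genes that were at least 1.5-fold above both sera with 1 lipid and at least 1.5-fold below with the other, of which 6 were above with cholesterol and 3 above with fatty acid.

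The chaperone and ER-associated degradation genes also lay on opposite sides of serum. Their median was 0.18 for LZ serum minus cholesterol and 0.19 for OZ serum minus cholesterol, and it was -0.30 for LZ serum minus fatty acid and -0.35 for OZ serum minus fatty acid. The difference between the lipids was not tested.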

How the results depend on the processing

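No paired analysis was possible because each group has 1 array. The results were recomputed with median centring, quantile normalization and cyclic loess, without the signal filter or with a stricter cutoff (brightest array at log2 8.68 or more), with averaged probe sets, an offset of 32 before log2, a 1.5-fold threshold, and each serum, each control or the mean of the sera as reference. No scaling moved the median of all genes by over 0.1. Of the counts and distances, 272 values stayed close to the reported ones. The distance of OZ minus LZ serum from fatty acid over the genes higher with fatty acid, 0.0020, had no stable sign: it was -0.00559 with quantile normalization, -0.0210 with loess, -0.00272 without filter, -0.00726 with the stricter filter, -0.00174 with the offset, 0.0335 with centring and 0.00696 with the mean of probe sets. Without a filter, 1 gene moved with OZ serum toward cholesterol, OZ serum was nearer cholesterol in 41.7% and fatty acid in 50.1% of genes, its distance from fatty acid changed to -0.00567 and its correlation with cholesterol to -0.0346. With the stricter filter the percentages were 38.5 and 53.5. Centring gave 78.2% for genes lower with fatty acid, and the high glucose control alone a correlation of -0.0417 with cholesterol.

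At 1.5-fold, LZ serum was higher than cholesterol in 362 and lower in 305 genes, and than fatty acid in 895 and 502. OZ serum gave 377 and 504, and 783 and 543. Both sera gave 274 and 267 against cholesterol, 673 and 392 against fatty acid and 178 and 103 against both lipids. With controls added these were 193 and 136, and 561 and 276, and serum stood apart from all other arrays in 1 gene each way. OZ serum lay with cholesterol in 3 and against it in 5 genes, and with fatty acid in 5 and against it in 6. List medians turned for glucocorticoid genes (LZ serum minus fatty acid 0.13), muscle differentiation (OZ serum minus fatty acid -0.0246) and adipocyte markers (LZ serum minus cholesterol -0.0273) without a filter, and for interferon genes (OZ serum minus cholesterol 0.0802) with the stricter one. The cause was not tested. Of named genes, Mt1 and Tenm3 with the mean of probe sets, Ddit3 with centring, and Car9, Mcam, Stard4, Tenm3, Cd34 and Ndrg1 with the offset came under 2-fold. Cholesterol enzymes below both controls in both sera, an alternative run chosen after seeing the data, numbered 15 with the stricter filter and 16 in the other settings. List counts of OZ against LZ serum were rerun in the same way. Complement genes below LZ serum numbered 5 with the stricter filter, which keeps fewer genes, 11 without a filter and 10 otherwise. Collagen genes below it numbered 19 with quantile normalization, 21 with the stricter filter and 22 otherwise. For sterol enzymes it was 14 with loess or the stricter filter and 15 otherwise. Mitosis genes above LZ serum numbered 16 with centring or the stricter filter and 18 otherwise. The number of arrays, and signals near background, limit the precision.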

Other observations

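Lysosomal genes leaned to opposite sides of serum without reaching 2-fold. Of 17 measured genes, 14 were higher with cholesterol than in both sera (46.6% of all genes were) and 12 were lower with fatty acid (39.2%). Mcoln1, a lysosomal calcium channel, was at log2 11.80 with cholesterol, 11.13 in LZ serum, 11.00 in OZ serum, 11.22 and 11.06 in the controls and 11.29 with fatty acid. Unlike the list as a whole, Mcoln1 was thus above both sera with both lipids. Gpnmb, a lysosomal membrane glycoprotein, was at 12.91 with cholesterol, 11.65 with fatty acid and 12.10 to 12.41 in the sera and controls. Of 17 hypoxia and glycolysis genes, 12 were higher with cholesterol than in both sera (46.6% of all genes) and 3 at least 2-fold (0.607%), namely Ndrg1 at 4.77-fold, Hk2 (hexokinase, -1.14) and Egln3 (an oxygen-sensing hydroxylase, -1.09), whereas Car9 was lower (1.01). The 23 nuclear-encoded respiratory chain subunits held 0 genes at 2-fold from both sera with either lipid.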
